A study of Mus musculus with 10 samples.

Results

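The genes described here encode 37 splicing and RNA-binding factors of the Celf, Elavl, Mbnl, Khdrbs and Qk, SR and hnRNP families, together with Matr3 and Tardbp. They were taken by name, as members of these families, and all 37 were found among the 30935 genes of the count table. Bulk RNA-seq was done on cerebral cortex taken from mouse pups of postnatal day 8. 5 libraries carried the homozygous HAR.505 deletion, which removes an element at the Rbfox1 locus (Rbfox1 ΔHAR.505/ΔHAR.505, called knockout here; replicates 1, 3, 5, 6 and 8), and 5 were Rbfox1 +/+ (called wild type; replicates 2, 4, 5, 6 and 7). The samples of a genotype were independent, per the series' design text. The counts are per gene and do not cover the deleted element, so they do not check the genotype labels. Sex and strain were not stated in the labels.

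These proteins bind short sequence motifs in pre-mRNA and mRNA and set which exons are kept, how long a message lasts and where in the cell it goes. The Celf, Elavl and STAR (Khdrbs and Qk) families hold broadly expressed forms beside forms made mainly in neurons. In the Mbnl, SR and hnRNP families no neuronal forms were set apart here. The forms of the Celf, Elavl and Mbnl families bind similar motifs, so their splicing targets can follow the balance between paralogs as well as their sum. Rbfox1 itself is a neuronal splicing factor that acts beside these proteins on many of the same exons. The comparisons below therefore take 2 forms: the level of each paralog within its family, and the difference of each gene between knockout and wild-type cortex.

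Library totals were 16479594 to 18166712 counts in knockout and 17251793 to 22391943 in wild-type libraries. Markers of cortical neurons were high in every library, with a summed level over 9 genes of 1871 to 1985 CPM (the count scaled to a common library size after TMM normalization) in knockout and 1778 to 1898 CPM in wild type. Slc17a7 was the largest part of this sum. Of the 9 genes, 7 had log2 fold changes above 0 in the knockout and 2, Tbr1 and Bcl11b, below. At an unadjusted edgeR p under 0.05, 1 was higher and 2 were lower, against 4.19% and 4.52% of all tested genes, and 0 passed after adjustment. Markers of other tissues and cell types differed with the genotype to varying degrees. All 11 markers of choroid plexus and ependyma had log2 fold changes below 0 in the knockout, 2 of them past the edgeR quasi-likelihood test (Benjamini-Hochberg adjusted p under 0.05), and their summed level was 109 to 351 CPM in knockout against 347 to 433 CPM in wild type, with Ttr at 0 in knockout replicate 3 and Otx2 at 0 in knockout replicates 3 and 6. Knockout replicates 3, 5 and 6 stood apart at 109 to 115 CPM, against 351 CPM in replicate 1 and 197 CPM in replicate 8. All 12 striatal markers were also below 0, 2 of them past the test, with a summed level of 207 to 280 CPM in knockout and 263 to 424 CPM in wild type. All 5 erythroid markers tested were below 0 (median -0.36) with 0 past the test, and the summed level of 7 was 386 to 422 CPM in knockout replicates 1, 3, 5 and 6 and 693 CPM in knockout replicate 8, against 483 to 684 CPM in wild type. All 7 microglial markers were above 0 (median 0.11) with 0 past the test, and summed to 197 to 256 CPM in knockout and 202 to 215 CPM in wild type. Of 8 astrocyte markers 7 were above 0 (median 0.065) with 0 past the test. At an unadjusted edgeR p under 0.05, 3 were higher and 0 lower in knockout, against 4.19% and 4.52% of all tested genes. Astrocyte markers summed to 3506 to 4097 CPM in knockout and 3313 to 3797 CPM in wild type. Pan-neuronal markers summed to 6938 to 7399 CPM in knockout and 7038 to 7486 CPM in wild type, a sum that can hide opposite differences. Of these 7 markers, 4 had log2 fold changes above 0 and 3 below. At an unadjusted edgeR p under 0.05, 2 were higher and 1 was lower, against 4.19% and 4.52% of all tested genes. After adjustment 0 passed. Without knockout replicate 8, 3 of the 7 passed, where 182 of 15633 tested genes did. The part of these markers in the values below was not tested. Some fits below carry the choroid or striatal level as a covariate. Both levels differ with the genotype, so these fits cannot tell covariate and genotype apart. In bulk tissue, fewer cells of a type and less RNA per cell cannot be told apart.

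Paralogs can be compared only if their reads can be assigned to the right gene. The coding sequences of the members were therefore searched for the longest run of identical bases that 2 genes of a family share. Over 124 pairs the longest run was 31 bases, the median was 12 bases and 0 pairs shared 50 bases or more. The closest pairs of 4 families are shown with 15 bases on each side, coding strand, 5′ to 3′, from GENCODE M21 transcripts (GRCm38); capitals mark the shared run.
Celf5 (chromosome 10, coding bases 86 to 116): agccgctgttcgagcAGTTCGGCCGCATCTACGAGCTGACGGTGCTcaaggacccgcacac
Celf6 (chromosome 9, coding bases 203 to 233): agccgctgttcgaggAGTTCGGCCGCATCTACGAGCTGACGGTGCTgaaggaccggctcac
Elavl3 (chromosome 9, coding bases 979 to 1007): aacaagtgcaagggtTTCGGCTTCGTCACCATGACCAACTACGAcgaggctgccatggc
Elavl4 (chromosome 4, coding bases 1033 to 1061): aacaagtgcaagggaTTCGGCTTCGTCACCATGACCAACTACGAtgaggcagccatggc
Khdrbs1 (chromosome 4, coding bases 496 to 524): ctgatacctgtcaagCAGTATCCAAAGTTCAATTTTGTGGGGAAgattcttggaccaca
Khdrbs2 (chromosome 1, coding bases 208 to 236): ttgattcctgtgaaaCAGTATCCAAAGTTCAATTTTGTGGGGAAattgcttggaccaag
Mbnl1 (chromosome 3, coding bases 187 to 212): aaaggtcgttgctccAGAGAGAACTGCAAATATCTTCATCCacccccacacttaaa
Mbnl2 (chromosome 14, coding bases 187 to 212): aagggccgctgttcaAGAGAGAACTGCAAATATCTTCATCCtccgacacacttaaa
These runs are interrupted by mismatches at both ends, so a read that spans the whole run differs between the genes of a pair. Longer near-identical stretches lie outside the families. 6 of the 37 members had a stretch of at least 200 bases at 97% identity or more in a gene that does not overlap them: Hnrnpf in 8 genes, Srsf3 in 3, Hnrnpk and Srsf10 in 2 each, and Srsf5 and Tra2b in 1 each. Counts of these 6 genes are uncertain to that extent. 14 of the 37 members are overlapped by exons of the opposite strand, for example Srsf2 by Mfsd11 and Mettl23. Whether counting used strand was not stated in the labels, so reads of such overlaps cannot be told apart. Elavl3 (by Gm49318), Hnrnpm (by March2) and Matr3 (by Gm28285) are also overlapped by exons of another gene on the same strand. How reads of these overlaps were counted was not stated.

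Levels were set beside each other per length, as CPM per kb of exon (CPM divided by the union of exons in GENCODE M21 basic transcripts), with means and SDs over all 10 libraries. Among the Celf genes, which bind GU-rich elements, the neuronal form Celf4 was highest at 136 ± 4.97 CPM per kb (SD, n = 10). The broadly expressed Celf2 followed at 68.5 ± 5.76, then the neuron-enriched Celf3 at 61.9 ± 2.12 and Celf5 at 53.3 ± 1.61, the broadly expressed Celf1 at 26.3 ± 1.45 and Celf6 at 14.2 ± 1.2 CPM per kb. The ranges of Celf2 and Celf3 overlapped, with Celf2 higher in 9 of 10 libraries, and every other neighbour in this order was separated in all 10. With the longest transcript as the length in place of the exon union, Celf5 stood above Celf3.

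Among the Elavl genes, which bind AU- and U-rich elements, all 3 neuronal forms stood above the ubiquitous Elavl1 (HuR). Elavl3 was at 54.4 ± 2.33 CPM per kb, Elavl4 at 31.5 ± 1.39, Elavl2 at 31.0 ± 1.49 and Elavl1 at 13.8 ± 0.993 CPM per kb (SD, n = 10). Elavl4 and Elavl2 did not differ beyond their spread, each the higher in 5 of 10 libraries, and the other steps were separated in all 10.

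Among the muscleblind genes, which bind motifs that contain UGC and are sequestered by CUG repeats in myotonic dystrophy, Mbnl2 was at 20.3 ± 1.5 and Mbnl1 at 9.54 ± 1.08 CPM per kb (SD, n = 10), separated in all 10 libraries. Mbnl3 had 0 to 11 counts in the knockout libraries and 3 to 9 in the wild-type libraries and was the single member that did not pass the filter on low counts, so it was not tested. Of the STAR family, Khdrbs3 (SLM2), a neuron-enriched regulator of neurexin splicing, was highest at 73.7 ± 6.88 CPM per kb, above the ubiquitous Khdrbs1 (Sam68) at 36.2 ± 1.83 and Qk (quaking), a factor of glia and myelination, at 23.7 ± 1.25. Khdrbs2 (SLM1) was at 1.31 ± 0.152 CPM per kb. With the longest transcript as the length, Qk stood above Khdrbs1.

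SR proteins carry serine- and arginine-rich domains and mostly promote exon inclusion. Srsf5 was highest at 89.98 ± 8.24 CPM per kb, followed by Srsf3 at 70.0 ± 4.52 and Srsf2 at 58.3 ± 2.47, and Srsf4 was lowest at 10.1 ± 0.931 (SD, n = 10). Srsf5 exceeded Srsf3 in all 10 libraries, although their ranges overlapped. From Srsf11 (38.6 ± 1.71) down to Tra2b (24.8 ± 2.04 CPM per kb) each gene overlapped the next in range. Of the hnRNP proteins, which often oppose SR proteins at exons, Hnrnpk, a binder of C-rich RNA, was at 97.9 ± 3.84, Hnrnpl at 89.4 ± 2.03, Hnrnph1 at 86.1 ± 4.25 and the nuclear matrix protein gene Matr3 at 81.0 ± 4.13 CPM per kb. Within these 4 genes, each overlapped the next in range. Hnrnpf was at 36.2 ± 2.03, Hnrnpm at 26.02 ± 1.24, Hnrnpd at 24.8 ± 2.11 and Tardbp (TDP-43, found in aggregates in amyotrophic lateral sclerosis) at 18.4 ± 0.622 CPM per kb.

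**Figure D1:**
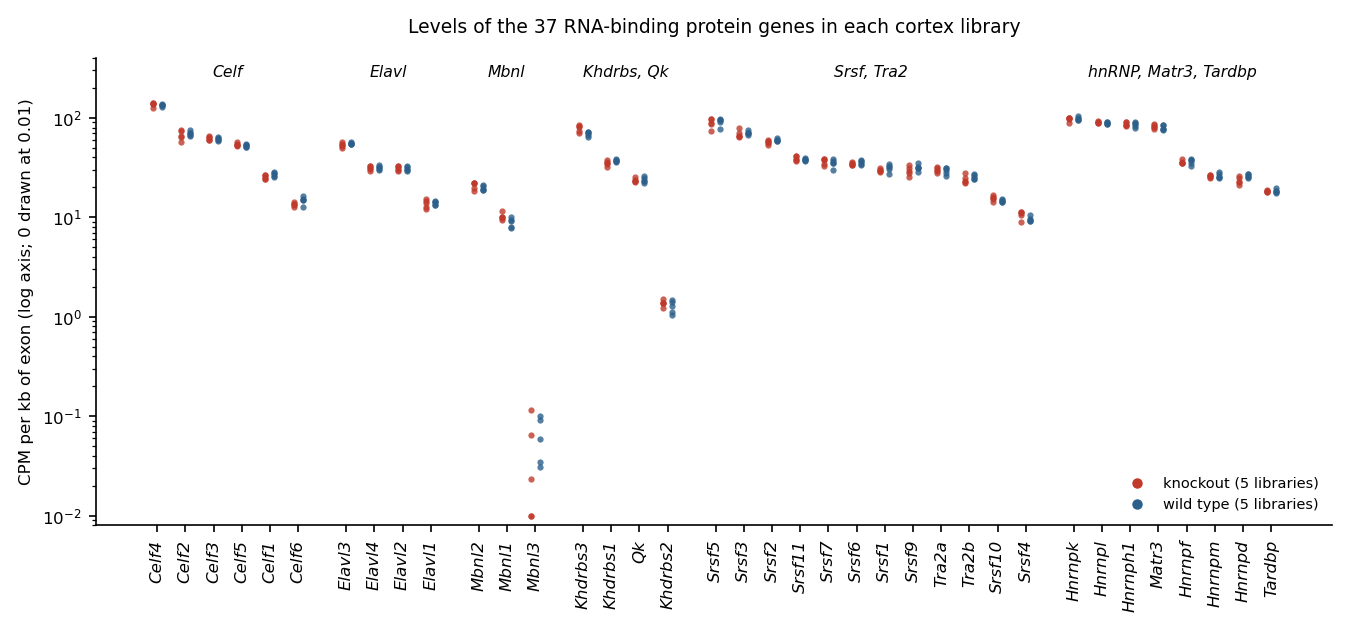
Level of each of the 37 genes in CPM per kb of exon (log axis, values of 0 drawn at 0.01), ordered by mean within family; each point is 1 library, knockout on the left and wild type on the right of each gene. Celf4 is the highest gene at 136 CPM per kb, Mbnl3 lies near 0, and knockout and wild-type points overlap for every gene.

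The share of each family's level held by neuron-enriched forms was compared between the genotypes. Elavl2, Elavl3 and Elavl4 held 89.5 ± 0.688% of the Elavl level per kb in knockout and 89.4 ± 0.542% in wild type (SD, n = 5 each). Celf3, Celf4, Celf5 and Celf6 held 74.3 ± 1.83% of the Celf level in knockout and 73.1 ± 1.14% in wild type. In both families the ranges of the genotypes overlapped, at 88.5 to 90.4% in knockout and 88.9 to 90.1% in wild type for Elavl, and at 71.9 to 76.4% in knockout and 71.7 to 74.4% in wild type for Celf. Khdrbs2 and Khdrbs3 held 57.5 ± 1.97% of the STAR level in knockout and 53.5 ± 1.77% in wild type. Nearly all of this share was Khdrbs3, at 73.7 CPM per kb against 1.31 for Khdrbs2. It is therefore not an observation separate from the Khdrbs3 values below. The STAR share was 56.3, 54.9, 58.9, 59.7 and 57.9% in the knockout libraries in replicate order and 52.3, 54.9, 53.5, 51.2 and 55.5% in the wild-type libraries. Knockout replicate 3 lay within the wild-type range and the other 4 knockout libraries lay above it. These shares sum over several members and were given no test.

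**Figure D2:**
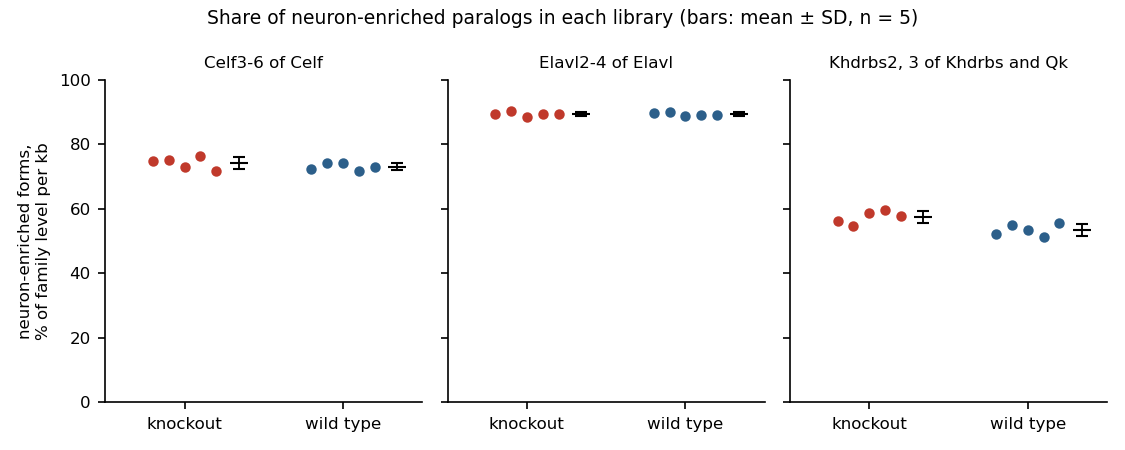
Percent of the family's level per kb held by neuron-enriched forms, for Celf, Elavl and the STAR family (Khdrbs and Qk); points are libraries, knockout left and wild type right, and bars show mean ± SD (n = 5). The Elavl share lies between 88.5 and 90.4% in every library, and the STAR share averages 57.5% in knockout and 53.5% in wild type with overlapping points.

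Between the genotypes, 0 of the 36 members tested passed the edgeR quasi-likelihood test with Benjamini-Hochberg adjustment over all genes, against 0.381% of the 15488 genes tested, and 0 passed with DESeq2 or limma-voom. At an unadjusted edgeR p under 0.05 there were 4 of 36 (11.1%), against 8.71% of all tested genes, and in 0 of 36 did the 5 knockout libraries lie apart from the 5 wild-type libraries, against 1.83% of all tested genes. Each of these counts is near its background. The log2 fold changes of knockout over wild type ran from -0.16 to 0.19, 16 above and 20 below 0, with a median of -0.014 beside -0.0021 over all tested genes. Standard errors were 0.043 to 0.12. No 95% interval reached below a fold of 0.824 or above 1.27, and in 30 of the 36 genes the whole interval lay within a factor of 1.2 either way. Without knockout replicates 3, 5 and 6, whose choroid markers stood apart, 0 members passed, and the log2 fold change was 0.19 (SE 0.068) for Khdrbs3, -0.10 (SE 0.067) for Hnrnpd, 0.28 (SE 0.093) for Mbnl1 and -0.17 (SE 0.092) for Celf6.

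**Figure D3:**
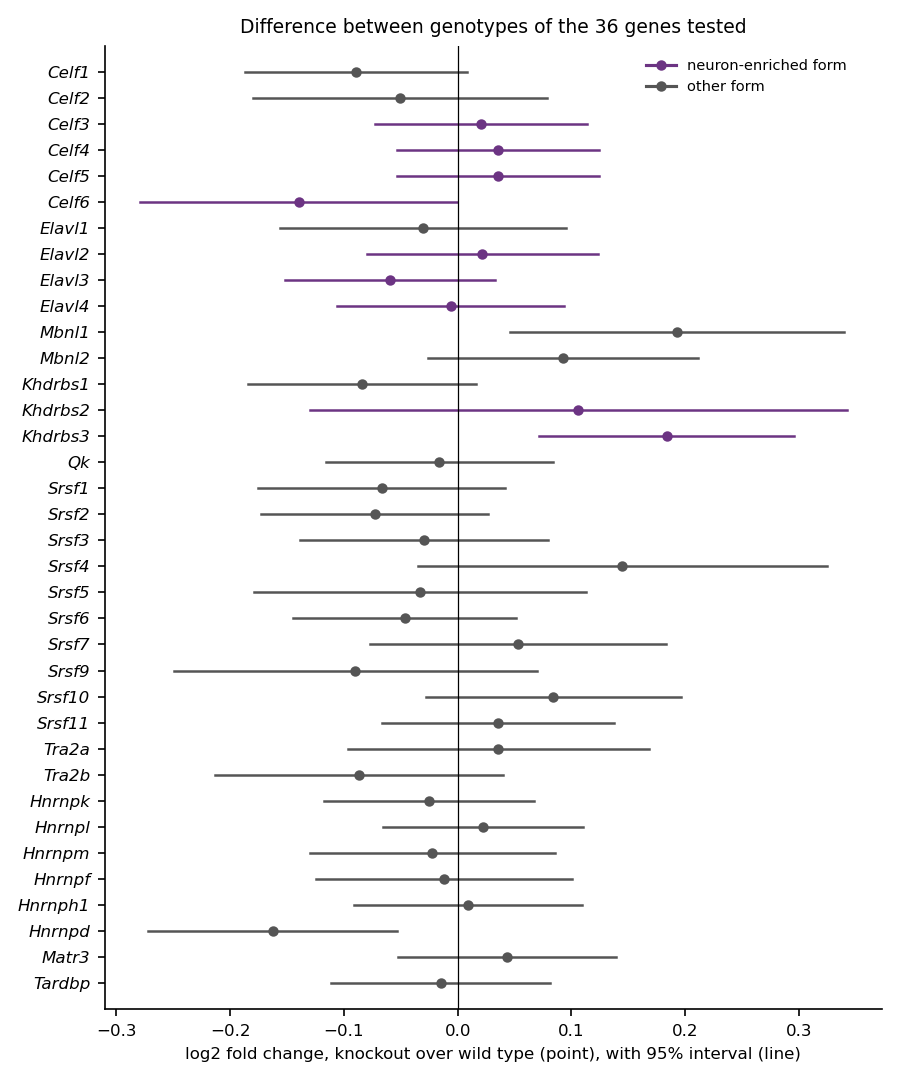
Log2 fold change of knockout over wild type (points) with its 95% interval (lines) for the 36 genes tested, neuron-enriched forms in purple and the others in grey. The intervals of Khdrbs3, Mbnl1, Hnrnpd and, at its edge, Celf6 exclude 0 before adjustment, and 0 genes passed after adjustment over all genes.

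Khdrbs3 had the smallest p of the members. It stood at 140, 132, 153, 159 and 156 CPM in the knockout libraries in replicate order, against 120, 137, 132, 126 and 137 CPM in the wild-type libraries. 4 of the 5 knockout libraries were above every wild-type library, and knockout replicate 3 lay among them. The log2 fold change was 0.18 (SE 0.055), with an edgeR p of 0.00221 that did not pass after adjustment over all genes (adjusted p = 0.187), and the exact two-sided permutation test of log2 CPM gave p = 0.0317, where 0.00794 is the smallest p that 5 libraries against 5 allow. Its ubiquitous relative Khdrbs1 stood at 132, 135, 120, 129 and 140 CPM in knockout and 137, 142, 139, 144 and 135 CPM in wild type, a log2 fold change of -0.084 (SE 0.049, edgeR adjusted p = 0.681). Per kb, Khdrbs3 was 2.24 ± 0.241 times Khdrbs1 in knockout and 1.85 ± 0.117 times in wild type (SD, n = 5 each), with overlapping ranges of 1.93 to 2.52 in knockout and 1.74 to 2.01 in wild type. Khdrbs2, at 12.4 to 15.2 CPM in knockout and 10.6 to 15.2 CPM in wild type, had the widest interval of the family, from 0.914 to 1.27. Qk, at 310 to 348 CPM in knockout and 307 to 361 CPM in wild type, had a log2 fold change of -0.016 (SE 0.049).

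Hnrnpd (AUF1), which binds AU-rich elements and affects mRNA decay, was the member with the next smallest p. It stood at 153, 144, 168, 154 and 178 CPM in knockout, against 173, 179, 187, 168 and 184 CPM in wild type. 4 of the 5 knockout libraries were below every wild-type library, and knockout replicate 8 lay within the wild-type range. The log2 fold change was -0.16 (SE 0.053, edgeR adjusted p = 0.275, exact permutation p = 0.0317). Without knockout replicate 8 it was -0.20 (SE 0.051) and passed the edgeR test (adjusted p = 0.0360), and over all alternatives the adjusted p ran from 0.0360 to 1.0. With the choroid level as a covariate it was -0.065 (SE 0.089), and with the striatal level -0.037 (SE 0.095). Both covariates differ with the genotype and the errors were larger, so the part of the markers in this gene was not tested.

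Among the other hnRNP genes the differences were small. Hnrnpk stood at 407, 405, 368, 409 and 404 CPM in knockout and 413, 428, 402, 391.7 and 393 CPM in wild type, a log2 fold change of -0.025 (SE 0.045, edgeR adjusted p = 0.945). Knockout replicate 5 was the lowest library and the others of both genotypes overlapped. Hnrnpl, which binds CA-rich RNA, varied least of the tested members, with a coefficient of variation of 2.27% over the 10 libraries and a fold interval of 0.955 to 1.08. Tardbp (0.926 to 1.06), Hnrnpf (0.917 to 1.07), Hnrnph1 (0.939 to 1.08), Hnrnpm (0.914 to 1.06) and Matr3 (0.964 to 1.1) had fold intervals that included 1. Per kb, Hnrnph1 was 2.40 ± 0.0859 times Hnrnpf in knockout and 2.37 ± 0.125 times in wild type (SD, n = 5 each).

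Both tested muscleblind genes had fold changes above 0. Mbnl1 stood at 58.8, 53.9, 58.4, 57.6 and 66.6 CPM in knockout, against 45.1, 53.7, 54.0, 58.9 and 46.6 CPM in wild type. The groups overlapped, with wild-type replicate 6 above all knockout libraries but replicate 8. The log2 fold change was 0.19 (SE 0.072, edgeR adjusted p = 0.366, exact permutation p = 0.0873). It was 0.32 (SE 0.12) with the choroid covariate and 0.44 (SE 0.12) with the striatal covariate, neither past the test. Mbnl2 stood at 105, 104, 94.4, 106 and 87.9 CPM in knockout and 88.4, 90.9, 99.5, 98.3 and 89.3 CPM in wild type, a log2 fold change of 0.093 (SE 0.058, edgeR adjusted p = 0.711). Knockout replicates 1, 3 and 6 were above every wild-type library, and knockout replicate 8 was below every one.

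**Figure D4:**
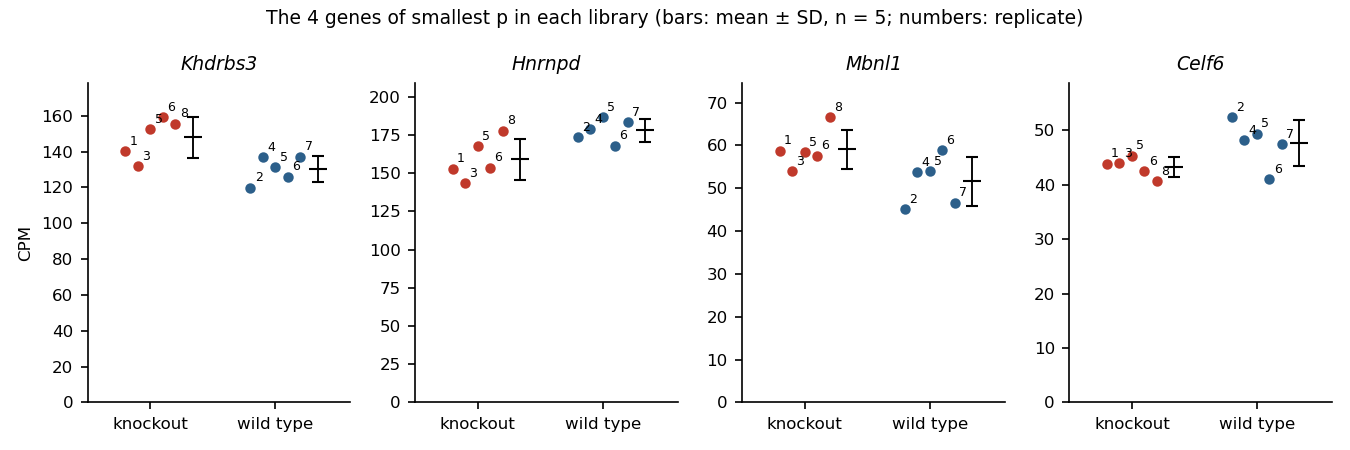
CPM of Khdrbs3, Hnrnpd, Mbnl1 and Celf6, the 4 members of smallest p, in each library (points, labelled by replicate), knockout left and wild type right, with mean ± SD (n = 5). Khdrbs3 averages 148 CPM in knockout and 130 CPM in wild type, and the groups overlap in each of the 4 genes.

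In the Celf family, Celf6 stood at 43.9, 44.0, 45.4, 42.5 and 40.6 CPM in knockout, against 52.4, 48.2, 49.4, 41.0 and 47.5 CPM in wild type. All wild-type libraries but replicate 6 were above the knockout libraries. Its log2 fold change was -0.14 (SE 0.068, edgeR adjusted p = 0.572, exact permutation p = 0.0714). Celf1, which promotes decay of GU-rich messages, stood at 207, 198, 216, 196 and 215 CPM in knockout and 228, 211, 206, 223 and 231 CPM in wild type, a log2 fold change of -0.09 (SE 0.048, edgeR adjusted p = 0.626). Every knockout library was below the wild-type mean of 219.7 CPM, and the ranges overlapped. Celf4, whose loss causes seizures in mice, stood at 581, 595, 592, 579 and 530 CPM in knockout, against 540, 570, 568, 565 and 565 CPM in wild type, a log2 fold change of 0.035 (SE 0.043). 4 of the 5 knockout libraries were above every wild-type library, while knockout replicate 8 was below every one. Celf2 stood at 559 to 727 CPM in knockout and 631 to 741 CPM in wild type, with a fold interval of 0.883 to 1.06. Celf3 (0.951 to 1.08) and Celf5 (0.963 to 1.09) had intervals that included 1.

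In the Elavl family, Elavl3 stood at 370, 357, 378, 341 and 391 CPM in knockout, against 393, 389, 380, 374 and 377 CPM in wild type, a log2 fold change of -0.059 (SE 0.045, edgeR adjusted p = 0.802). Knockout replicates 1, 3 and 6 were below every wild-type library. The log2 fold change was 0.022 for Elavl2 (fold interval 0.946 to 1.09), -0.006 for Elavl4 (0.929 to 1.07) and -0.031 for Elavl1 (0.897 to 1.07). Elavl3 per kb was 3.91 ± 0.248 times Elavl1 in knockout and 3.98 ± 0.268 times in wild type (SD, n = 5 each).

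Of the 12 SR and Tra2 genes, 0 had an edgeR p under 0.05 before or after adjustment, 5 had fold changes above and 7 below 0, and the median was -0.031. Srsf4 was farthest from 0, at 25.4, 23.8, 25.6, 25.0 and 20.2 CPM in knockout, against 21.8, 20.8, 24.0, 20.8 and 21.1 CPM in wild type. 3 knockout libraries were above every wild-type library and replicate 8 was below every one, with a log2 fold change of 0.14 (SE 0.088, edgeR adjusted p = 0.697). Srsf5, the most abundant per kb, stood at 162, 147, 124, 161 and 143 CPM in knockout, against 161, 156, 157, 129 and 151 CPM in wild type, a log2 fold change of -0.033 (SE 0.070). The lowest libraries were replicate 5 of the knockout and replicate 6 of the wild type. Srsf2 (SC35), found in nuclear speckles, stood at 107 to 119 CPM in knockout and 116 to 124 CPM in wild type, with all 5 knockout libraries below the wild-type mean (log2 fold change -0.073, SE 0.049, edgeR adjusted p = 0.740, exact permutation p = 0.0476). The log2 fold changes of the other Srsf genes were 0.084 (Srsf10), 0.053 (Srsf7), 0.036 (Srsf11), -0.029 (Srsf3), -0.047 (Srsf6), -0.067 (Srsf1) and -0.090 (Srsf9), and all of their intervals included 0. Tra2b, which binds GAA-rich enhancers, was at 85.1 ± 8.61 CPM in knockout and 90.4 ± 5.05 CPM in wild type (SD, n = 5 each), and its relative Tra2a at 54.3 ± 2.94 CPM in knockout and 53.0 ± 4.22 CPM in wild type. Tra2b per kb was 0.800 ± 0.0691 times Tra2a in knockout and 0.874 ± 0.0656 times in wild type, with overlapping ranges.

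Gene totals add productive and unproductive transcripts. SR and hnRNP genes are known for exons and introns that send their own mRNA to nonsense-mediated decay, through which many of these proteins limit their own level. In GENCODE M21, 22 of the 36 tested members (61.1%) have a transcript annotated to that fate, against 25.6% of the 15118 tested genes with a GENCODE match, and 11 of the 12 SR and Tra2 genes (91.7%) do. A retained-intron transcript is annotated for 28 of the 36 (77.8%), against 53.6% of tested genes. The members have a median of 10 annotated transcripts, against 5 over all tested genes, and they lie between the 38.6th (Khdrbs2) and 99.0th (Celf2) percentile of level, so both shares are descriptions of well-annotated and mostly abundant genes. A shift between productive and unproductive forms with no change in the total would not be seen in these counts.

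Read by form, 6 of the 9 neuron-enriched members had fold changes above 0 (median 0.022), and 10 of the 27 others did (median -0.022), against 49.1% of all tested genes. An unadjusted edgeR p under 0.05 was found for 2 of the 9 (22.2%) and 2 of the 27 (7.41%), against 8.71% of all tested genes, and 0 passed after adjustment. The difference between the groups was not tested.

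In 4 further lists of splicing genes, 0 genes passed the edgeR test over all genes. Of 26 other hnRNP proteins and relatives, 7 had fold changes above and 19 below 0 (median -0.043), where 49.1% of all tested genes were above 0. 2 of the 26 had an unadjusted edgeR p under 0.05, against 8.71% of all tested genes. Hnrnpul2 was at 184 to 196 CPM in knockout and 196 to 211 CPM in wild type (log2 fold change -0.10, SE 0.044, edgeR adjusted p = 0.468), with the libraries just apart, as in 1.83% of all tested genes, and Hnrnpa0 at 268 ± 17.7 CPM in knockout and 289 ± 20.1 CPM in wild type (SD, n = 5 each, edgeR adjusted p = 0.541). Of 30 other splicing regulators 1 had an unadjusted p under 0.05, also against 8.71%, Fubp3 (29.4 ± 0.934 CPM in knockout and 33.2 ± 2.26 CPM in wild type), and the cold-inducible RNA-binding protein gene Cirbp came next (log2 fold change -0.11, SE 0.070). Of 10 genes for SR protein kinases and nuclear import, 8 were above 0 (median 0.064), against 49.1% of all tested genes. 0 of them had an unadjusted edgeR p under 0.05. Srpk1 (0.096, SE 0.062) and Prpf4b (0.081, SE 0.054) had the smallest p on the log2 scale of fold change.

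Core spliceosome genes lay mostly below 0 in the knockout: 25 of 31 had fold changes below and 6 above 0, with a median of -0.048. Over all tested genes 49.1% were above 0, with a median of -0.0021. 2 higher and 1 lower gene had an unadjusted edgeR p under 0.05, against 4.19% and 4.52% of all tested genes. Cdc5l, a component of the complex that activates the spliceosome, was at 55.3 to 60.0 CPM in knockout and 48.0 to 53.6 CPM in wild type, apart in all libraries, as in 1.83% of all tested genes (log2 fold change 0.19, SE 0.059, edgeR adjusted p = 0.242). The helicase gene Snrnp200 was at 134 ± 8.92 CPM in knockout and 145 ± 5.06 CPM in wild type (log2 fold change -0.12, SE 0.051, edgeR adjusted p = 0.490). The summed level of the 31 genes was 2204 to 2288 CPM in knockout and 2302 to 2332 CPM in wild type, without overlap. The sum was given no test. In every other list summed here, the members, the other splicing lists and the marker lists, the ranges of the genotypes overlapped. The core spliceosome sum is thus picked from several sums, and how often sums over other sets of genes lie apart was not computed. With knockout replicates 1 and 8 alone the median was -0.018, with 11 genes above 0, and with the striatal covariate -0.015, with 13 above 0. With the choroid covariate it was -0.041, with 9 above 0. With replicates 5 and 6 of both genotypes alone, blocked by number, it was -0.074, with 11 above 0. As single libraries were left out it ran from -0.060 to -0.024.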

How the data were processed

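The authors deposited 1 table of raw counts per gene with Entrez identifiers for 10 libraries, and the submitters' processing notes name HISAT2, featureCounts and the build mm39. For versions, annotation, strand setting and multi-mapping reads, the sources used here give nothing. Total RNA was purified on Qiagen columns, per the labels' protocols. 30648 identifiers matched a symbol in a RefSeq table of GRCm38.p6, used for names alone.

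The deposited counts went into edgeR 4.0.16 (R 4.3.3): filterByExpr (15488 genes kept), TMM factors, a robust quasi-likelihood test of genotype without covariates, Benjamini-Hochberg adjustment over all genes and a threshold of 0.05. Standard errors come from the F statistic. Log2 CPM (prior count 2) were compared by an exact permutation test over all assignments of 5 libraries against 5, for the 36 tested members. Fold changes are knockout over wild type. Exon lengths and transcripts came from GENCODE M21 (GRCm38), which is of another build than the counts, so levels per kb are approximate; near-identical copies were sought with minimap2 2.31-r1302. The analysis was tested on simulated counts. Alternatives used DESeq2 1.42.0, limma 3.58.1 and those in the closing section.

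The members, lists and alternatives were chosen with earlier results of these data known. Per-library values are given for any member past the threshold, the 8 members of smallest p and the highest member of each family per kb, and from each further list for any gene past the threshold and the 2 of smallest p; the other members are given by range or interval, and Srsf2 was singled out after its values were seen.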

Additional observations from a re-analysis of the deposited data

Results flagged for a closer look

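In 96 groups of 5 libraries (the members, the neuronal shares and the further genes named), 4 values (4.17%) lay far from the other 4 of their genotype, where chance gives about 1 in 20 groups. Celf4 was lowest in knockout replicate 8, at 530 CPM against 579 to 595 CPM in the other knockout libraries, and in wild-type replicate 2, at 540 CPM against 565 to 570 CPM. Hnrnpk was lowest in knockout replicate 5, at 368 CPM against 404 to 409 CPM. Hnrnpf was highest in knockout replicate 8, at 111 CPM against 99.5 to 103 CPM.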

How the results depend on the processing

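0 members passed the test under every alternative but 1: without knockout replicate 8, Hnrnpd passed, so the count ran from 0 to 1 as single libraries were left out. The count over all genes, 59 as reported, was 171 with no filter, 119 with DESeq2, 108 at an adjusted p under 0.1, 12 with knockout replicates 1 and 8 alone, and 15 to 182 as single libraries were left out (15 without wild-type replicate 2, 182 without knockout replicate 8). It was 0 with the choroid covariate and 0 with the striatal covariate (762 and 585 genes at an unadjusted edgeR p under 0.05). Both covariates differ with the genotype, and these fits cannot tell them apart from it. 14 members kept the sign of their fold change in all 20 alternatives, but the size moved. The log2 fold change ran from 0.16 to 0.28 for Khdrbs3, -0.20 to -0.037 for Hnrnpd, 0.041 to 0.44 for Mbnl1, 0.017 to 0.14 for Mbnl2, -0.12 to -0.041 for Celf1, -0.19 to -0.033 for Celf6 and -0.18 to -0.0054 for Khdrbs1. The value nearest 0 came with the replicate block for Mbnl1, Mbnl2 and Celf6, the choroid covariate for Celf1 and the striatal covariate for Hnrnpd and Khdrbs1. In 22 others it turned in at least 1, by values of at most 0.083 in size, and the cause was not tested.

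Numbers 5 and 6 are shared by both genotypes. Libraries of the same number did not deviate together from their genotype means (correlations -0.030 and -0.057). So few pairs cannot show whether they share more than a number. With the replicate block on these 4 libraries 29 genes and 0 members passed. The log2 fold changes that turned were those of Celf3 (-0.033), Celf5 (-0.016), Srsf1 (0.0055), Srsf11 (-0.045), Hnrnpl (-0.018), Hnrnpm (0.039), Hnrnpf (0.070) and Hnrnph1 (-0.0044). With knockout replicates 1 and 8 alone they were Celf2 (0.015), Celf4 (-0.014), Elavl1 (0.026), Elavl4 (0.031), Srsf3 (0.035), Srsf5 (0.019), Hnrnpk (0.0024), Hnrnpm (0.024), Hnrnpf (0.028) and Tardbp (0.010). With the choroid covariate they were Celf2 (0.0084), Celf4 (-0.027), Elavl1 (0.083), Srsf1 (0.0027), Srsf3 (0.0071), Srsf5 (0.061), Hnrnpk (0.0010), Hnrnpm (0.051), Hnrnpf (0.032) and Tardbp (0.0056). With the striatal covariate they were Celf2 (0.040), Celf4 (-0.042), Elavl1 (0.045), Elavl3 (0.017), Khdrbs2 (-0.047), Qk (0.035), Srsf1 (0.023), Srsf2 (0.019), Srsf3 (0.0067), Srsf5 (0.00073), Tra2a (-0.046), Tra2b (0.0037), Hnrnpk (0.0051), Hnrnpm (0.025) and Tardbp (0.012).

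Leaving out single libraries gave Celf2 -0.090 to 0.00079, Elavl1 -0.071 to 0.011, Elavl4 -0.026 to 0.020, Qk -0.039 to 0.025, Srsf3 -0.075 to 0.0032, Srsf5 -0.081 to 0.027, Tra2a -0.0018 to 0.064, Hnrnpk -0.034 to 0.0051, Hnrnpm -0.040 to 0.0093, Hnrnpf -0.046 to 0.015, Hnrnph1 -0.012 to 0.031 and Tardbp -0.032 to 0.012 on the log2 scale. Other normalizations turned no member. Not divided by length, the neuron-enriched forms held 57.1% of Celf counts, 89.3% of Elavl counts and 26.2% of STAR counts in knockout, and 55.6, 89.3 and 23.5% in wild type. Counting limits Mbnl3, and 12.4 to 15.2 CPM in knockout leave the widest interval to Khdrbs2.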

Other observations

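Knockout replicate 8 was the lowest knockout library for Celf4, Mbnl2 and Srsf4 and the highest for Hnrnpd and Mbnl1. The same held for other members, for example highest for Celf2, Elavl3 and Hnrnpf and lowest for Celf6. The summed level of the 37 members was 6925 CPM in this library. It was 6458 to 6692 CPM in the other knockout libraries and 6639 to 6773 CPM in wild type. Knockout replicate 8 also differed in a marker of cortical neurons, chosen here after its values were seen. Slc17a7, the vesicular glutamate transporter gene of cortical excitatory neurons, stood at 805 CPM in this library, against 1075, 980, 1015 and 1068 CPM in the other knockout libraries and 867 to 971 CPM in wild type. The part of this gene in the members' values was not tested.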
